A study of Mus musculus with 74 samples.

Results

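Mouse embryonic stem (ES) cells in which Nanog and Otx2 were activated together during 3 days without the self-renewal cytokine LIF were compared with the same cells left uninduced. The 8 RNA-seq libraries, of 74 samples in the series, were chosen by their labels: Nanog/Otx2 SunTag cells without LIF (0 ng/mL), 4 libraries without doxycycline (Dox, 0 µg/mL) and 4 with Dox (1 µg/mL). SunTag is a CRISPR activator in which a catalytically dead Cas9 carries epitopes that recruit VP64 activator domains to a promoter chosen by a guide RNA. All 8 libraries came from E14Tg2a cells with the Dox-driven SunTag, its rtTA transactivator and guides for the endogenous Nanog and Otx2 promoters, so both the control and the induced cells carried every transgene. Each condition held 2 libraries of clone C1ON3 and 2 of clone C2ON3, which were 1 clone each derived from the SunTag parents C1 and C2 and had been kept because both targets were inducible. Induced and uninduced cells therefore differed in Dox as well as in the activator, and no library of guide-less cells with Dox was used here, so effects of the drug and of SunTag itself cannot be told apart from those of the targets. Nothing in the labels says whether libraries of 1 clone came from separate cultures, and p-values measure the spread between libraries. Fitted p-values for the Dox response take this spread from all 15 Nanog/Otx2 libraries, 7 of them with LIF.

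Nanog is a homeobox transcription factor of the naive pluripotency network, the set of regulators that keeps ES cells self-renewing, and LIF sustains this network through its receptor, gp130 and STAT3. When LIF is withdrawn the cells leave the naive state and pass through a formative, epiblast-like state, in which Otx2, a homeobox factor of the epiblast and later of the anterior head, is switched on. Nanog and Otx2 are thus normally high in opposite states, and the comparison shows which gene programmes differed when both were raised in cells that were losing LIF support.

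The guide sequences are shown because they define what was activated and where. Each is given on its own strand with 30 bases on either side, read from mm9, and the 20 bases matched by the guide are in capitals, followed directly by the NGG motif that Cas9 needs.
Nanog guide site, chr6:122657269-122657291, plus strand: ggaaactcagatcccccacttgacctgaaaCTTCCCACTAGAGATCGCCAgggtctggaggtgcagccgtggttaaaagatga
Otx2 guide site, chr14:49282646-49282668, minus strand: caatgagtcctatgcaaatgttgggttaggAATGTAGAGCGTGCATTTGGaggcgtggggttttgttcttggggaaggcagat
Each 20-base sequence with its NGG occurred once in the genome. The Nanog site (gene at chr6:122657507-122664651) lay 216 to 320 bases upstream of the 4 annotated transcript starts. The Otx2 site (gene at chr14:49277354-49287319) lay 99 bases upstream of the start of 1 short transcript and 1039 bases upstream of another, and within introns of the 6 transcripts that start further upstream.

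The libraries held between 21499110 and 86864360 estimated counts without Dox and between 21937288 and 42353701 with Dox, and between 15076 and 15647 genes had at least 10 normalised counts. Levels below are normalised counts, the estimated counts divided by 1 size factor per library, and values are given in the order C1ON3-1, C1ON3-2, C2ON3-1, C2ON3-2. They are not corrected for transcript length, so levels are compared between conditions and not between genes. Pearson's r of log2 expression across genes was 0.986 to 0.991 for libraries of the same clone and condition, 0.974 to 0.984 between clones within a condition and 0.968 to 0.982 between conditions within a clone. The 100 most abundant genes took 22.0% to 23.1% of the counts and mitochondrial genes 3.58% to 4.93%. These are bulk samples, in which fewer cells of a kind and less RNA per cell cannot be told apart.

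Both targets rose in every induced library, Nanog strongly and Otx2 modestly. Nanog had 6867, 6327, 1974 and 2533 without Dox and 48471, 42572, 35379 and 31697 with Dox. Its lowest induced library lay 4.62 times above its highest uninduced one, and the mean rose 8.93-fold (exact permutation test, two-sided, p = 0.0286, the smallest that 4 against 4 libraries allow). The uninduced level was higher in C1ON3 than in C2ON3, and the ratio of the means was 6.9 in C1ON3 and 14.9 in C2ON3. Otx2 had 3372, 4389, 3387 and 5148 without Dox and 7347, 7311, 6827 and 7206 with Dox. All 4 induced libraries again lay above the uninduced ones, the mean rose 1.76-fold (p = 0.0286 by the same exact test, the smallest possible), and the ratios were 1.89 in C1ON3 and 1.64 in C2ON3. In uninduced cells with LIF (10 ng/mL, 3 libraries) Nanog averaged 19480.0 ± 1110.2 (SD, n = 3) and Otx2 952 ± 187. Induced cells without LIF therefore held more of both mRNAs than uninduced cells with LIF, and Otx2 was already high without Dox. RSEM divides reads between near-identical copies, and Nanog has processed pseudogenes, so its level is uncertain to that extent.

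**Figure D1:**
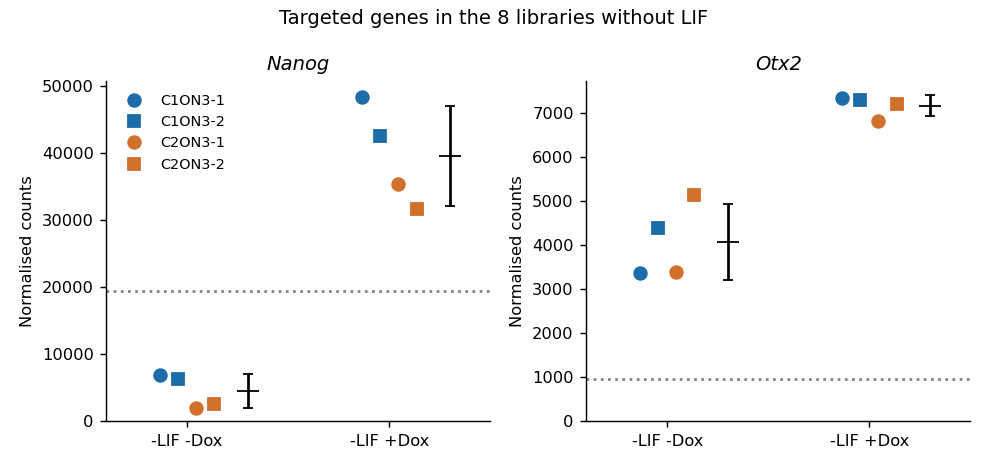
Normalised counts (linear axes from 0) of Nanog and Otx2 in the 4 uninduced and 4 induced libraries without LIF, coloured by clone, with the mean ± SD beside them and the mean of uninduced cells with LIF as a dotted line. All induced libraries lie above all uninduced ones, the Nanog mean by 8.93-fold and the Otx2 mean by 1.76-fold.

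Among called genes, increases were more numerous and larger than decreases. A gene is called where its edgeR p-value, adjusted over the 15609 genes tested, is under 0.05. There were 2702 calls (17.3%), 1742 higher (11.2%) and 960 lower (6.15%) with Dox. The median log2 fold change was 0.97 among genes that rose and −0.43 among those that fell, against −0.01 for all genes. Changes of over 2-fold were found for 833 of the genes that rose and 150 of those that fell, and changes of over 4-fold for 215 and 13. The 4 and 4 libraries did not overlap for 1749 genes higher with Dox (11.2%) and 1844 genes lower with Dox (11.8%), or 23% in either direction. Libraries of the same clone deviated together, whether of the same number or not. Treating each pair of the same clone and number as a block raised the count to 5215 genes (33.4%). Of these 2957 rose (18.9%) and 2258 fell (14.5%), and 2701 of the 2702 were among them. DESeq2 called 3330 genes (21.3%), 1888 higher (12.1%) and 1442 lower (9.24%). Without the +Dox C1ON3-2 library the count was 1756. A fit to the 8 libraries without LIF alone called 2225 of 14936 genes. The ± after a log2 fold change below is its standard error. Where leaving out 1 library ended a call named below, the highest adjusted p among the 8 omissions follows the p-value, with the libraries whose omission ended the call. List counts below are descriptions, to be read against these shares of all genes.

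Naive pluripotency factors formed the clearest programme. Of 18 listed and tested, 13 rose and none fell, and the median log2 fold change was 1.81. Esrrb, an orphan nuclear receptor that sustains self-renewal, had 712, 638, 562 and 720.1 without Dox and 4925, 5388, 5808 and 4914 with Dox. Its libraries were tightly grouped by condition in both clones, with a log2 fold change of 3.03 ± 0.10 (adjusted p = 7.46e-11). Zfp42 (Rex1), a zinc-finger marker of the naive state, had 1272, 1222, 1309.9 and 1685 without Dox and 6711, 9740.2, 10236 and 9005 with Dox. This was a log2 fold change of 2.74 ± 0.13 (adjusted p = 1.1e-08), with the lowest induced library from C1ON3. The T-box factor Tbx3 had 82.6, 106, 199.9 and 199 without Dox and 748, 1096, 1710.1 and 1245 with Dox, C2ON3 being higher in both conditions. It rose with a log2 fold change of 3.09 ± 0.30 (adjusted p = 1.2e-05). Prdm14, a PR-domain protein of naive and germ cells, had 44.5, 33.02, 41.6 and 43.4 without Dox and 365, 285, 379 and 297 with Dox, with no overlap and a log2 fold change of 3.04 ± 0.15 (adjusted p = 1.1e-08). Among the Krüppel-like factors, Klf5 had 274, 276, 251 and 345 without Dox and 1409.6, 2115, 2040.0 and 2156 with Dox, rising with a log2 fold change of 2.79 ± 0.16 (adjusted p = 5.68e-08). Klf4 had 91.9, 84.5, 139.9 and 171 without Dox and 439.8, 350.2, 641 and 506 with Dox, low without Dox in all libraries, with a log2 fold change of 2.04 ± 0.25 (adjusted p = 6.43e-05). Tfcp2l1, a Grainyhead-like factor of the naive network, had 214, 225, 314 and 397 without Dox and 800.3, 876, 1846 and 1269.8 with Dox. C2ON3 was higher in both conditions and the groups did not overlap (log2 fold change 2.10 ± 0.29, adjusted p = 0.000212).

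The other members of the naive list ranged from clear rises to no call. Nr0b1 (Dax1), Tcl1 and Fbxo15 had log2 fold changes of 2.20 (adjusted p = 7.29e-05), 2.18 (adjusted p = 9.98e-05) and 1.58 (adjusted p = 1.09e-05). Klf2 and the growth factor gene Fgf4 had log2 fold changes of 1.23 (adjusted p = 0.00044) and 1.08 (adjusted p = 0.000392), and Dppa4 had 0.34 (adjusted p = 0.0203, up to 0.0687 without −Dox C1ON3-1, −Dox C1ON3-2, +Dox C1ON3-2 or +Dox C2ON3-1) with overlapping libraries. Nr5a2, a nuclear receptor, averaged 204 without and 226 with Dox (log2 fold change 0.21, adjusted p = 0.817). Gdf3 had log2 fold changes of −0.01 (adjusted p = 0.986), Dppa3 0.16 (adjusted p = 0.892), Dppa2 0.39 (adjusted p = 0.2) and Dppa5a 0.42 (adjusted p = 0.0818), none past the threshold. The 13 that rose stayed mostly below the level of uninduced cells with LIF. Esrrb reached 27.6% of its mean there, from 3.45% without Dox, Zfp42 33.4% from 5.13%, Tfcp2l1 11.3% from 2.71% and Klf4 13.2% from 3.31%. Klf5 came closer, with 67.02%, and Fgf4 exceeded it with 132%. These percentages are ratios of means on the normalised-count scale and share the uninduced cells with LIF (3 libraries) as denominator. Those 3 libraries were 2 of C1ON3 and 1 of C2ON3, while groups without LIF held 2 of each. The percentages therefore also carry differences between the clones.

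Core pluripotency factors, which ES and epiblast cells both express, were mostly not called. Of 7 tested, 1 rose and 1 fell, where 11.2% of all genes rose and 6.15% fell, and the median log2 fold change was −0.03. Pou5f1 (Oct4) had 41227, 36863, 45805 and 40336 without Dox and 37935, 36346, 41073 and 41009 with Dox, with overlapping groups (log2 fold change −0.03 ± 0.07, adjusted p = 0.806). Sox2, its partner, had 4683, 4944, 8039.9 and 7772 without Dox and 8272, 7963, 11304 and 8852 with Dox. Its groups overlapped and it rose with a log2 fold change of 0.55 ± 0.17 (adjusted p = 0.0375, up to 0.115 without −Dox C1ON3-1, −Dox C1ON3-2, +Dox C2ON3-1 or +Dox C2ON3-2), while Lin28a, an RNA-binding protein that blocks let-7 maturation, fell with −0.40 (adjusted p = 0.0158, up to 0.0555 without −Dox C2ON3-1). Sall4 had a log2 fold change of −0.20 (adjusted p = 0.209), which did not pass the threshold.

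The LIF receptor genes Lifr and Il6st, and Stat3, rose although no LIF was present. Of 13 genes of the LIF receptor and STAT3 list, 5 rose and none fell (median 0.27), and with the block Socs2 was called lower as well (adjusted p = 0.0318). Lifr, the ligand-specific receptor chain, had 241, 389.7, 326 and 489 without Dox and 936, 1288, 1184 and 1176 with Dox, with no overlap and a log2 fold change of 1.71 ± 0.18 (adjusted p = 1.86e-05). Its signalling partner gp130, encoded by Il6st, had 709.8, 758, 957 and 1063 without Dox and 1327, 1520.0, 1531 and 1390.2 with Dox and a log2 fold change of 0.76 ± 0.11 (adjusted p = 0.000287). Stat3 itself had a log2 fold change of 0.67 (adjusted p = 5.49e-05). The other members that rose were Klf4 and Tfcp2l1, given above. The listed receptor gene Osmr and the kinase genes Jak1 and Jak2 were not among those that rose. The feedback gene Socs3 and the target genes Junb, Pim1 and Pim3 were not called. Socs3 averaged 70.8 without and 45.3 with Dox, against 3425 in uninduced cells with LIF (log2 fold change −0.62, adjusted p = 0.22), and Junb, Pim1 and Pim3 had log2 fold changes of 0.06 (adjusted p = 0.936), −0.06 (adjusted p = 0.78) and −0.11 (adjusted p = 0.462).

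**Figure D2:**
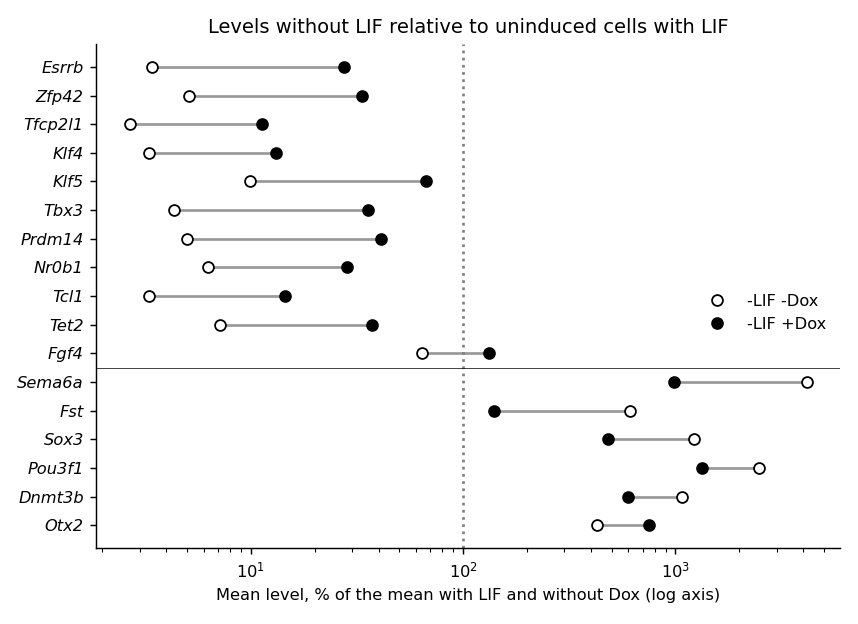
Mean normalised counts without LIF, uninduced (open circles, n = 4) and induced (filled circles, n = 4), as a percent of the mean of uninduced cells with LIF (dotted line at 100%, n = 3, log axis), for naive-state genes above the line and genes of exit from it below. Esrrb moves from 3.45% to 27.6% and Sema6a from 4146% to 989%, while Otx2 moves further above 100%.

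The 10 largest increases among genes called with a mean of at least 100 in the higher group and no overlap of libraries were Col14a1, Itga1, Gm7325, Pla2g4e, Nanog, Notum, Ptgs1, Notch4, Tbx3 and Car8. Col14a1, a fibril-associated collagen, had 39.1, 39.6, 12.5 and 7.79 without Dox and 573, 546, 176 and 146 with Dox. Both clones rose from different baselines, C1ON3 being higher throughout (log2 fold change 3.85 ± 0.53, adjusted p = 0.000174). Itga1, the collagen-binding integrin α1 subunit, had 40.8, 44.9, 12.5 and 14.5 without Dox and 292, 510.2, 170.0 and 156 with Dox, again higher in C1ON3, with a log2 fold change of 3.33 ± 0.55 (adjusted p = 0.00081). The Notch receptor gene Notch4 had 109.7, 95.1, 56.6 and 55.6 without Dox and 601, 817, 739.6 and 575 with Dox, rising with a log2 fold change of 3.12 ± 0.21 (adjusted p = 4.04e-07). Notum, which encodes an extracellular enzyme that inactivates Wnt ligands, had 43.5, 30.4, 19.99 and 22.3 without Dox and 244, 369, 273 and 185 with Dox, rising with a log2 fold change of 3.17 ± 0.35 (adjusted p = 2.97e-05). Col14a1, Itga1, Notch4 and Notum were low in all 4 uninduced libraries, and the rule for naming the 10 genes required that the groups did not overlap. Log2 fold changes of the others were 3.31 for Gm7325, 3.25 for the phospholipase gene Pla2g4e, 3.17 for Ptgs1 (cyclooxygenase 1) and 3.06 for the carbonic anhydrase-related Car8. Of these 10 genes, Col14a1 and Itga1 were not high in uninduced cells with LIF (means of 14.4 and 18.8), whereas Gm7325 averaged 1495 and Notum 636 there.

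Genes of the formative and primed epiblast, which LIF withdrawal switches on, were lowered in part. Of 19 entries tested, 6 fell and 2 rose (median −0.32), and 8 fell and 3 rose with the block. Sox3, a neural and epiblast SOX factor, had 379, 458, 468 and 481 without Dox and 171, 120.2, 199 and 212 with Dox, with no overlap and a log2 fold change of −1.30 ± 0.22 (adjusted p = 0.000994). The POU factor Pou3f1 (Oct6) had 4332, 5462, 7066 and 7294 without Dox and 3157, 3072, 2704 and 3967 with Dox. It fell with a log2 fold change of −0.87 ± 0.23 (adjusted p = 0.0193, up to 0.0598 without −Dox C2ON3-1, −Dox C2ON3-2, +Dox C1ON3-2 or +Dox C2ON3-1). A second identifier of Pou3f1, with a mean of 49.7 without and 31.0 with Dox, could not be called (log2 fold change −0.62, adjusted p = 0.291). Dnmt3b, the de novo DNA methyltransferase of the epiblast, had 78562, 86763, 85777 and 86432 without Dox and 49578, 50608, 41328 and 46965 with Dox, with no overlap and a log2 fold change of −0.80 ± 0.26 (adjusted p = 0.0463, up to 0.101 without any 1 library). Fgf5, the classical epiblast growth factor, had 2238, 2068, 1944 and 1929 without Dox and 1172, 915, 1371 and 1405 with Dox. All induced libraries lay below all uninduced ones, but the edgeR call was missed (log2 fold change −0.71, adjusted p = 0.0516). Fgf5 was called with the block (adjusted p = 0.0084), by DESeq2 (0.0296), with DESeq2 size factors in edgeR (0.0463) and in a fit to the libraries without LIF alone (0.00793). Sox4 and Lin28b fell with log2 fold changes of −0.51 (adjusted p = 0.0037) and −0.51 (adjusted p = 0.000192), while the ETS factor Etv5 rose with 0.66 (adjusted p = 1.86e-05). Lef1, Zic2, Zic5 and Dnmt3a had log2 fold changes between −0.13 and 0.01 and none passed, and Fst, described below, was the sixth that fell. Even after induction Pou3f1 stood at 1327% and Dnmt3b at 598% of their means in uninduced cells with LIF.

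The 10 largest decreases by the same rule were Irx5, Fst, Sema6a, Prickle1, Kctd12b, Hs6st2, B230206F22Rik, Cxcl12, Mfap3l and Has2. Sema6a, a transmembrane semaphorin of axon guidance, had 3137, 2375, 1973 and 1662 without Dox and 319, 289.5, 813 and 759.5 with Dox. It fell in both clones, much further in C1ON3 (log2 fold change −2.03 ± 0.34, adjusted p = 0.000994). Fst (follistatin), a secreted inhibitor of activins, had 395, 343, 256 and 213 without Dox and 53.1, 57.2, 72.3 and 92.1 with Dox and a log2 fold change of −2.09 ± 0.24 (adjusted p = 3.71e-05). The Iroquois homeobox gene Irx5 had 42.5, 77.9, 171 and 164 without Dox and 8.39, 15.2, 31.7 and 38.1 with Dox, C2ON3 being higher in both conditions, and a log2 fold change of −2.21 ± 0.49 (adjusted p = 0.00606). Cxcl12, a chemokine, had 1549.7, 2194, 1416 and 2081 without Dox and 512, 504, 481 and 704 with Dox, with no overlap and a log2 fold change of −1.68 ± 0.18 (adjusted p = 2.3e-05). The rule for naming them required each induced library to lie below the uninduced range. Prickle1, of the planar cell polarity pathway, had a log2 fold change of −2.003 (adjusted p = 0.000537), the hyaluronan synthase gene Has2 −1.65 (adjusted p = 0.000779) and the heparan sulphate 6-O-sulphotransferase gene Hs6st2 −1.70 (adjusted p = 0.000287). Log2 fold changes were −1.85 (adjusted p = 0.0189, up to 0.0587 without −Dox C1ON3-1 or +Dox C2ON3-2) for Kctd12b, −1.70 (adjusted p = 0.000105) for B230206F22Rik and −1.67 (adjusted p = 0.000328) for Mfap3l.

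**Figure D3:**
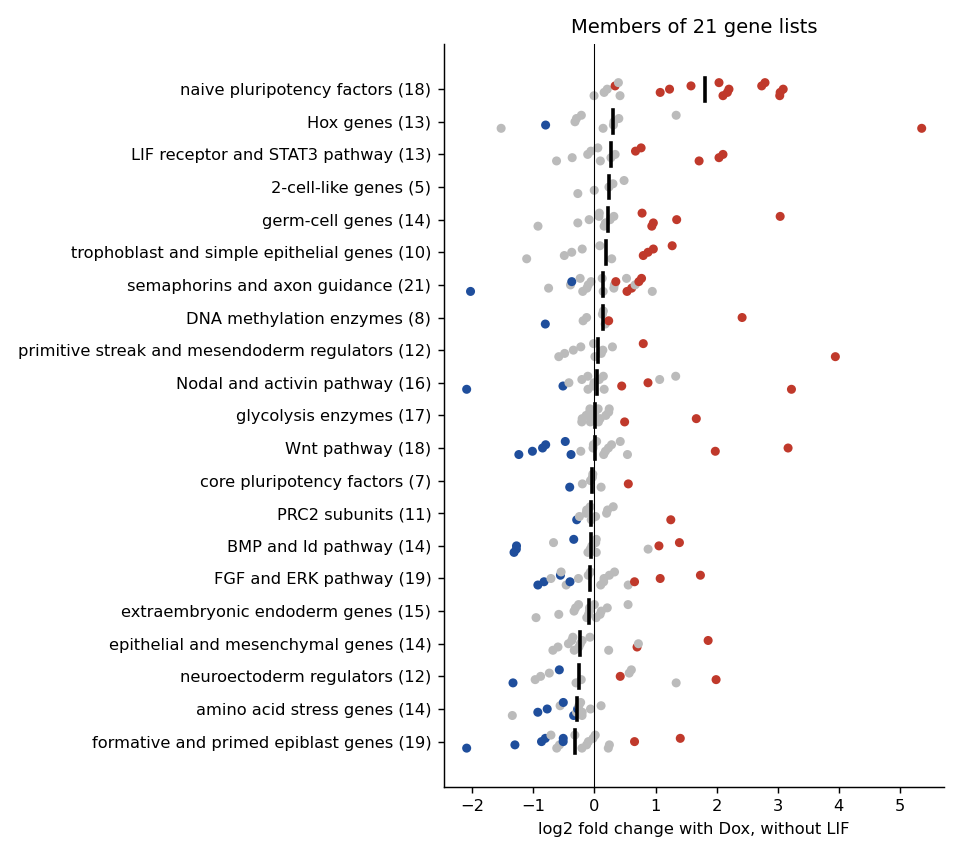
Log2 fold changes with Dox without LIF for the tested members of 21 gene lists (number tested in brackets), red where called higher, blue where called lower and grey where not called, with each list's median as a black bar. Genes with at most 3 counts in every library of a group are left out of the points. The naive list stands furthest right (median 1.81) and the formative list furthest left (median −0.32).

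Signalling genes moved in both directions. In the FGF and ERK list, 3 of 19 rose and 4 fell without a block, and 6 rose and 8 fell with it. Among the ligands, Fgf17 had 51.5, 51.5, 75.8 and 108 without Dox and 164, 131, 299 and 325 with Dox, rising with a log2 fold change of 1.74 ± 0.33 (adjusted p = 0.00222). The feedback phosphatase genes Dusp4 and Dusp6, which dampen ERK, fell with log2 fold changes of −0.93 (adjusted p = 0.00121) and −0.83 (adjusted p = 0.0176, up to 0.0572 without −Dox C1ON3-2, −Dox C2ON3-2 or +Dox C1ON3-1). The feedback inhibitor gene Spry2 and the receptor gene Fgfr1 also fell, with log2 fold changes of −0.56 (adjusted p = 0.0291, up to 0.0787 without −Dox C1ON3-2, −Dox C2ON3-1, −Dox C2ON3-2 or +Dox C1ON3-1) and −0.40 (adjusted p = 0.00286). Transcription factor genes downstream of the pathway went otherwise, with Etv5 higher (given above) and Etv4 uncalled, with a log2 fold change of 0.24 (adjusted p = 0.326).

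In the Nodal and activin list, 3 of 16 rose and 2 fell, and 5 rose with the block. Inhbb, which encodes the activin βB subunit, had 4.35, 17.2, 28.3 and 60.1 without Dox and 31.7, 104, 379 and 345 with Dox. The highest uninduced library exceeded the lowest induced one, and the log2 fold change was 3.23 (adjusted p = 0.0173). The inhibitory Smad7 and the type I receptor gene Acvr1b rose with log2 fold changes of 0.88 (adjusted p = 0.000378) and 0.45 (adjusted p = 0.0127). Fst fell as described, and Skil, a SMAD corepressor, fell with a log2 fold change of −0.51 (adjusted p = 0.0415, up to 0.118 without any library but −Dox C1ON3-1 and +Dox C2ON3-2). Lefty2, a Nodal antagonist and target, averaged 301 and 749 without and with Dox, and was called with the block only (adjusted p = 0.0915 without it and 2.56e-05 with it).

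Of 14 BMP and Id genes, 2 rose and 4 fell. Id1, a dominant-negative helix-loop-helix factor and BMP target, had 1012, 1219, 2581 and 2160.2 without Dox and 461, 506, 854 and 970.0 with Dox. C2ON3 was higher throughout, but all induced libraries lay below the uninduced ones (log2 fold change −1.28 ± 0.34, adjusted p = 0.0187, up to 0.0694 without −Dox C2ON3-1, +Dox C1ON3-1 or +Dox C1ON3-2). Id2 had 755, 886, 1904 and 1718 without Dox and 449, 342, 613 and 706 with Dox and a log2 fold change of −1.28 ± 0.28 (adjusted p = 0.00591). Id3 did not follow, with a log2 fold change of −0.07 (adjusted p = 0.908). The homeobox gene Msx1 fell with a log2 fold change of −1.32 (adjusted p = 0.0285, up to 0.0935 without any library but −Dox C1ON3-1 and +Dox C2ON3-2) and its relative Msx2 rose with 1.39 (adjusted p = 0.00312). The ligand gene Bmp4 rose with a log2 fold change of 1.06 (adjusted p = 0.000715) and the receptor gene Bmpr1a fell with −0.34 (adjusted p = 0.00131).

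Of 18 entries of the Wnt list, 2 rose and 6 fell, and 4 rose and 6 fell with the block (median 0.01). The Frizzled receptor gene Fzd7 had 5928, 7016, 11139 and 13154 without Dox and 2184, 2508, 4629 and 6032 with Dox. The highest induced library, of C2ON3, lay just above the lowest uninduced one, of C1ON3, and the log2 fold change was −1.24 (adjusted p = 0.0143). Fzd2 fell with a log2 fold change of −0.85 (adjusted p = 0.000595), Wnt8a with −1.02 (adjusted p = 0.0192, up to 0.064 without −Dox C1ON3-2, −Dox C2ON3-1 or +Dox C1ON3-1), and the secreted antagonist genes Sfrp1 and Sfrp2 with −0.38 (adjusted p = 0.0115) and −0.48 (adjusted p = 0.00899). Another antagonist, Sfrp5, rose with a log2 fold change of 1.98 (adjusted p = 2.65e-05), as did Notum. Axin2, a common target of the pathway, had a log2 fold change of 0.54 (adjusted p = 0.147) and was called with the block (adjusted p = 0.00761). Fzd10 is listed under a pair of identifiers, of which the more abundant fell with a log2 fold change of −0.80 (adjusted p = 0.0463, up to 0.143 without any library but −Dox C1ON3-1, +Dox C1ON3-1 and +Dox C2ON3-1).

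Lineage regulators were mostly at low levels and showed no common direction. Of 12 tested neuroectoderm regulators, 2 rose and 2 fell, and 3 rose and 4 fell with the block. Hesx1, a homeobox gene of the anterior forebrain, had 9.03, 9.25, 9.99 and 6.68 without Dox and 39.1, 52.5, 27.9 and 19.7 with Dox. The induced libraries lay above the uninduced ones, at low levels (log2 fold change 1.99 ± 0.59, adjusted p = 0.0314, up to 0.0958 without any library but +Dox C2ON3-1 and +Dox C2ON3-2). Every uninduced library of Hesx1 was under 10, so it passed the filter through a group where it was higher, which favours such a call. Sox11 had 499, 692, 832 and 1043 without Dox and 450.0, 435, 477 and 636 with Dox, with overlapping groups and a log2 fold change of −0.57 ± 0.19 (adjusted p = 0.0477, up to 0.16 without any library but −Dox C1ON3-1 and +Dox C2ON3-2). It was not called in a fit to the libraries without LIF alone (adjusted p = 0.115). Zic1 fell with a log2 fold change of −1.33 (adjusted p = 0.0225, up to 0.066 without −Dox C1ON3-2, −Dox C2ON3-1, +Dox C1ON3-2 or +Dox C2ON3-2) from a mean of 15.7, and Tubb3, a neuronal tubulin gene, rose with 0.42 (adjusted p = 0.0226, up to 0.0673 without any library but −Dox C1ON3-1, +Dox C1ON3-1 and +Dox C1ON3-2). Pax6 had a log2 fold change of −0.22 (adjusted p = 0.771) and Nes, an intermediate filament of neural progenitors, −0.97 (adjusted p = 0.103). Nes was called with the block (adjusted p = 0.0126).

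Among 12 primitive streak and mesendoderm regulators, 3 rose and none fell. Eomes, a T-box gene of the streak and trophoblast, had 165, 178, 208 and 263 without Dox and 223, 364, 382 and 409 with Dox. Its groups overlapped, and it rose with a log2 fold change of 0.80 ± 0.23 (adjusted p = 0.0248, up to 0.0696 without any library but −Dox C2ON3-2 and +Dox C1ON3-1). Evx1, a homeobox gene of the posterior streak, had 2.34, 1.32, 3.33 and 5.56 without Dox and 38.2, 53.7, 50.7 and 44.7 with Dox, rising with a log2 fold change of 3.94 ± 0.49 (adjusted p = 8.04e-05). Every uninduced library of Evx1 was under 10, so it too passed the filter through a group where it was higher, which favours such a call. Cdx1 had at most 2 counts in any uninduced library and a mean of 4.03 after induction, so no fold is given (adjusted p = 0.0133). Mixl1, Tbx6 and Sox17 had log2 fold changes of −0.49 (adjusted p = 0.253), 0.14 (adjusted p = 0.749) and 0.11 (adjusted p = 0.895).

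Genes at the end of the Hoxa cluster, next to Evx1, also rose. Of 39 Hox genes listed, 13 passed the filter on low counts, and 3 of these rose and 1 fell (3 and 2 with the block). Passing through a group where a gene is high favours such calls. Hoxa13 had 1.003, 0, 0 and 0 without Dox and 47.5, 94.6, 88.8 and 82.9 with Dox. Hoxa11 had 0.669, 0, 0 and 0 without Dox and 15.8, 37.4, 30.4 and 18.4 with Dox. The uninduced libraries held at most 3 counts of Hoxa13 and 2 of Hoxa11, near or at zero, while every induced library was well above, and no fold is given (adjusted p = 3.12e-06 and 0.00045). Hoxa10 had 2.01, 1.32, 0.833 and 2.23 without Dox and 54.04, 70.05, 112 and 50.6 with Dox and a log2 fold change of 5.36 ± 0.53 (adjusted p = 1.29e-05). In uninduced cells with LIF these 3 genes averaged between 3.40 and 6.25. Hoxd13 fell with a log2 fold change of −0.80 (adjusted p = 0.0319, up to 0.092 without any library but −Dox C1ON3-1, −Dox C2ON3-2 and +Dox C1ON3-2) and Hoxb7 had −1.53 (adjusted p = 0.0577).

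Of 15 extraembryonic endoderm genes tested, none was called in edgeR, and the list summed to between 12199 and 17483 without Dox and between 11677 and 15692 with it. DESeq2 and the block each called 1, Dab2, which encodes an endocytic adaptor (log2 fold change −0.96 ± 0.34, adjusted p = 0.0647, and 0.000116 with the block). The defining factors Gata6, Gata4 and Sox17 averaged 30.4, 67.6 and 18.1 without Dox and 29.3, 60.5 and 18.4 with Dox. Of 10 trophoblast and simple epithelial genes, 4 rose and none fell, and with the block Krt18 was called lower as well (adjusted p = 0.0142). Krt19, a keratin, had a log2 fold change of 1.27 (adjusted p = 0.024, up to 0.0831 without −Dox C2ON3-1, −Dox C2ON3-2, +Dox C1ON3-1 or +Dox C1ON3-2), Tfap2c 0.96 (adjusted p = 0.022, up to 0.0664 without −Dox C1ON3-1, −Dox C1ON3-2 or +Dox C2ON3-1) and Tead4 0.88 (adjusted p = 0.00726), and Eomes was the other. The trophoblast factors Gata3 and Gata2 had log2 fold changes of −1.11 (adjusted p = 0.0824) and −0.49 (adjusted p = 0.25), and Krt8 and Krt18 had −0.20 (adjusted p = 0.484) and −0.37 (adjusted p = 0.206), so the genes of this list did not move together.

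Germ-cell genes included 5 that rose and none that fell among 14 (6 and none with the block). Prdm14 led them. Dazl, an RNA-binding protein of germ cells, had 184, 229, 326 and 349 without Dox and 361, 593, 834 and 887 with Dox, with no overlap and a log2 fold change of 1.35 ± 0.29 (adjusted p = 0.00592). Prdm1 (Blimp1) and Kit rose with log2 fold changes of 0.94 (adjusted p = 0.0428, up to 0.125 without any library but +Dox C2ON3-1) and 0.78 (adjusted p = 0.00679), and Tfap2c was the fifth. Ddx4, Sycp3 and Mael, of later germ cells, had log2 fold changes of −0.09 (adjusted p = 0.752), −0.27 (adjusted p = 0.616) and 0.26 (adjusted p = 0.662).

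Among chromatin enzymes Tet2, which oxidises 5-methylcytosine, had 386, 444, 349.7 and 499 without Dox and 1512, 2719, 2362 and 2123 with Dox. The groups were far apart (log2 fold change 2.42 ± 0.16, adjusted p = 4.04e-07), while its relatives Tet1 and Tet3 had log2 fold changes of 0.18 (adjusted p = 0.35) and −0.19 (adjusted p = 0.412). Of 8 DNA methylation enzymes, 2 rose and 1 fell, the others being Uhrf1 with a log2 fold change of 0.23 (adjusted p = 0.0242, up to 0.0982 without −Dox C1ON3-1, +Dox C1ON3-1 or +Dox C1ON3-2) and Dnmt3b. Phf19, an accessory subunit of the H3K27 methyltransferase complex PRC2, had 209, 161, 119.9 and 118 without Dox and 485, 460.0, 299 and 182 with Dox. The lowest induced library, of C2ON3, lay below the highest uninduced one, of C1ON3, and it rose with a log2 fold change of 1.25 ± 0.40 (adjusted p = 0.0433, up to 0.12 without any library but −Dox C1ON3-1 and +Dox C2ON3-2). Of 11 PRC2 subunits, 1 rose and 1 fell, Rbbp7 with a log2 fold change of −0.29 (adjusted p = 0.028, up to 0.0953 without −Dox C2ON3-1, −Dox C2ON3-2, +Dox C1ON3-1 or +Dox C1ON3-2), and with the block 4 rose and 1 fell. The catalytic subunit gene Ezh2 and Eed had log2 fold changes of −0.07 (adjusted p = 0.454) and 0.02 (adjusted p = 0.931), and Suz12 had 0.22 (adjusted p = 0.126).

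The remaining lists included stress, metabolic and adhesion genes. Among all genes 11.2% rose and 6.15% fell, and the few glycolysis, epithelial and mesenchymal calls are to be read against these shares. Of 14 genes of the amino acid stress response, which ATF4 controls, 5 fell and none rose, and 8 fell with the block. Chac1, a glutathione-degrading enzyme, had 2802, 2699.8, 2195 and 2023 without Dox and 1193, 1476, 934 and 1380.3 with Dox, with no overlap and a log2 fold change of −0.93 ± 0.21 (adjusted p = 0.00748). Ddit3 (CHOP), Trib3, Atf4 and Phgdh fell with log2 fold changes of −0.77 (adjusted p = 0.0148), −0.51 (adjusted p = 0.0488, up to 0.121 without any library but −Dox C2ON3-2), −0.34 (adjusted p = 0.0384, up to 0.103 without any library but +Dox C1ON3-2 and +Dox C2ON3-2) and −0.28 (adjusted p = 0.0373, up to 0.0977 without any library but +Dox C2ON3-2). The median log2 fold change was −0.41 in C1ON3, where 10 members were called lower, and −0.19 in C2ON3, where 2 were. Of 17 glycolysis enzymes and transporters, 2 rose, and 4 rose and 2 fell with the block. Pfkp, the platelet isoform of phosphofructokinase, had 3062, 2887, 1827 and 2708 without Dox and 7052, 8897, 8225 and 8310.1 with Dox. It stood apart from its isoform genes Pfkl and Pfkm, with a log2 fold change of 1.67 ± 0.14 (adjusted p = 2.86e-06) against 0.09 (adjusted p = 0.708) and 0.19 (adjusted p = 0.342), and the other that rose was Hk1 with 0.49 (adjusted p = 0.0478, up to 0.13 without any library but −Dox C1ON3-1).

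Of 14 epithelial and mesenchymal genes, 2 rose and none fell, although the list median was −0.24, and 3 rose and 4 fell with the block. Zeb1, a repressor of epithelial genes, had 21.1, 42.3, 28.3 and 34.5 without Dox and 43.8, 118, 132 and 136 with Dox, rising with a log2 fold change of 1.86 ± 0.32 (adjusted p = 0.00115). Vim rose with a log2 fold change of 0.70 (adjusted p = 0.0256, up to 0.0971 without any library but −Dox C1ON3-2, +Dox C2ON3-1 and +Dox C2ON3-2), and Cdh1 and Cdh2 (E- and N-cadherin) had −0.23 (adjusted p = 0.174) and −0.07 (adjusted p = 0.86). Of 21 genes of semaphorin and axon guidance signalling, 5 rose and 2 fell, and 8 rose and 3 fell with the block. Besides Sema6a, the semaphorin receptor gene Plxnb1 fell with a log2 fold change of −0.37 (adjusted p = 0.0293, up to 0.082 without −Dox C1ON3-1, −Dox C1ON3-2, +Dox C1ON3-2 or +Dox C2ON3-2). The receptor genes Epha2, Plxna2, Ephb2 and Robo1 rose with log2 fold changes of 0.77 (adjusted p = 0.0216, up to 0.0702 without −Dox C2ON3-1, −Dox C2ON3-2, +Dox C1ON3-2 or +Dox C2ON3-2), 0.73 (adjusted p = 0.0145), 0.61 (adjusted p = 0.0128) and 0.53 (adjusted p = 0.000942), and Sema4d rose with 0.35 (adjusted p = 0.0298, up to 0.0795 without any library but −Dox C1ON3-1 and +Dox C2ON3-2). None of 5 genes of the 2-cell-like state was called, and the 3 Zscan4 genes, whose near-identical copies share reads, had log2 fold changes between 0.24 and 0.49.

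The response was then set out for each clone. With each clone given its own groups, 3181 genes were called in C1ON3 (20.4%), 1928 higher (12.4%) and 1253 lower (8.03%), and 2796 in C2ON3 (17.9%), 1731 higher (11.1%) and 1065 lower (6.82%). With the block these counts were 4826 and 4389. Both clones called 1867 genes, 1246 higher and 621 lower, which were 58.7% of the C1ON3 calls and 66.8% of the C2ON3 calls, and none of them went in opposite directions. Of the genes called in C1ON3, 97.5% had the same sign in C2ON3, and of those called in C2ON3, 98% had it in C1ON3, against 79% of all 15609 genes. Clone counts rest on 2 libraries a group: C1ON3 calls fell to 1676 without −Dox C1ON3-1, 2115 without +Dox C1ON3-1 and 1740 without +Dox C1ON3-2, and C2ON3 calls to 1015 without −Dox C2ON3-1, 1778 without −Dox C2ON3-2, 1419 without +Dox C2ON3-1 and 1629 without +Dox C2ON3-2. Where a lone library is left in a group, it is assumed to vary like the others.

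All 2702 genes called over both clones had the same sign in each clone, which the joint call favours. Of the 1742 that rose, 1116 were called in both clones, 285 in C1ON3 alone, 192 in C2ON3 alone and 149 in neither. Of the 960 that fell, 485 were called in both, 228 in C1ON3 alone, 126 in C2ON3 alone and 121 in neither. Their median log2 fold changes were 0.94 in C1ON3 and 0.94 in C2ON3 for genes that rose, and −0.45 and −0.40 for genes that fell. The naive list had median log2 fold changes of 1.85 and 1.68, with 15 and 13 of 18 members called higher. Esrrb rose by 2.96 in C1ON3 and 3.11 in C2ON3 on the log2 scale, and Zfp42 by 2.75 and 2.73.

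No gene had a Dox response that differed between the clones in edgeR at an adjusted p-value under 0.05 (0% of 15609), and 857 had an unadjusted p-value under 0.05. With the block 4 genes did, and DESeq2 called 15, of which 6 were relatively higher in C2ON3 and 9 lower. Among the DESeq2 calls were Nanog (difference 1.12, adjusted p = 8.03e-08) and, of the naive list, Klf2 (difference −0.795, adjusted p = 0.0237). Without a filter on low counts 295 genes were called, while leaving out 1 library gave 5 (without −Dox C1ON3-2), 2 (without −Dox C2ON3-2) or 0. Of the 4 genes called with the block, Nanog, Sema6a and B230206F22Rik are given here, chosen after their values were seen. Each had a higher log2 fold change in C2ON3. On the log2 scale Nanog rose by 2.82 in C1ON3 and 3.94 in C2ON3 (difference of log2 fold changes 1.13, adjusted p = 0.0481 with the block). Sema6a had log2 fold changes of −3.15 and −1.17 (difference 1.99, adjusted p = 0.0121) and B230206F22Rik −2.30 and −1.13 (difference 1.17, adjusted p = 0.0481). The larger Nanog ratio in C2ON3 went with a lower uninduced level, since induced Nanog was higher in C1ON3. Fst fell by 2.72 in C1ON3 and by 1.45 in C2ON3 on the log2 scale, a difference of 1.26 (standard error 0.28, adjusted p = 0.531) that did not pass.

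**Figure D4:**
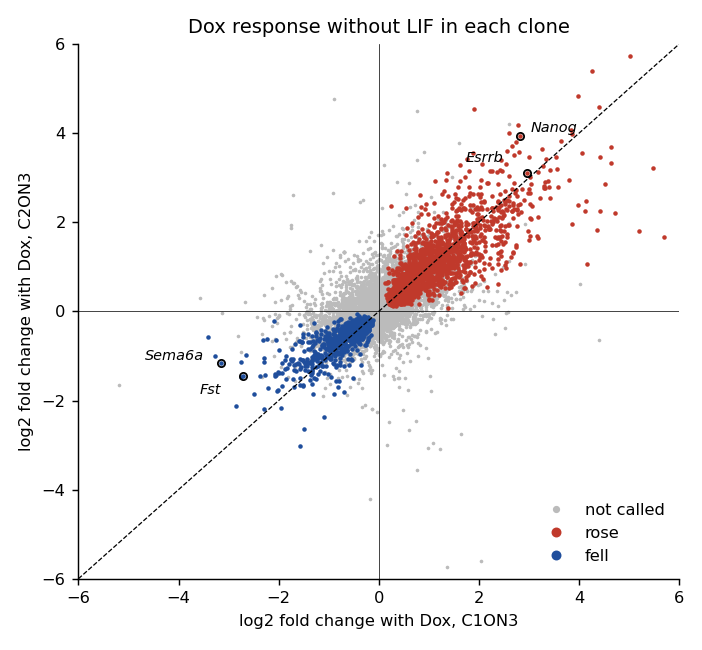
Log2 fold change with Dox without LIF in clone C1ON3 (x axis) against clone C2ON3 (y axis) for the 15609 genes tested, 17 of which lie outside the axes. Red and blue points are genes called higher or lower over both clones and grey points are not called, and the dashed line marks equal changes. Called genes lie in the quadrants of shared sign, Nanog above the line and Sema6a and Fst nearer to 0 in C2ON3.

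Cells with the Nanog guide alone, grown without LIF with Dox (3 libraries) or without it (3 libraries), show which responses were also present when Otx2 was not targeted. In a fit over all 26 SunTag libraries and 16210 genes, 2023 genes were called with the Nanog guide (12.5%; 7.36% higher and 5.12% lower) and 1789 with both guides (11%; 7.11% higher and 3.92% lower). The sets shared 1001 genes, 49.5% of the first and 56% of the second, and 997 of these had the same direction. The 2 sets of cells have no library in common, but C1ON3 and C2ON3 are single clones picked after the Otx2 guide was added, so guide set and clone cannot be told apart. Library names of the 2 sets also carry different prefixes, and the labels do not say what these mark. Any batch that they stand for could not be told apart from guide set either. Nanog rose in both guide sets, with log2 fold changes of 3.17 with the Nanog guide and 3.16 with both (difference −0.01, standard error 0.49). Among naive genes, Esrrb had log2 fold changes of 3.23 and 2.995 (difference −0.23, standard error 0.19) and Zfp42 3.12 and 2.70 (difference −0.42, standard error 0.22), neither past the threshold. By list, the naive genes had 16 of 18 called higher with the Nanog guide (median 2.21) and the formative genes 2 higher and 7 lower of 19 (median −0.46). The amino acid stress list had 1 of 14 called higher and none lower with the Nanog guide (median −0.19). The Hox list had 3 of 13 called higher and the LIF receptor and STAT3 list 4 of 13, none lower (medians 0.43 and 0.23). In edgeR no member of these lists was called for a difference between the guide sets. With 3 or 4 libraries in a group, modest differences could have been missed.

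The Dox response differed between the guide sets for 5 genes (0.0308%), Otx2, Kif21a, Psmb8, Zfp36l3 and Kcnj12, all relatively higher with both guides, while 923 genes had an unadjusted p-value under 0.05. Otx2 went from 4238 ± 697 (SD, n = 3) to 2450.3 ± 188 with the Nanog guide, and from 4074 ± 859.8 (SD, n = 4) to 7173 ± 238 with both (difference of log2 fold changes 1.57, standard error 0.25, adjusted p = 0.00914). Kif21a, a kinesin motor gene, had 1244, 1272, 963 and 1113 without Dox and 2888, 2603, 2102 and 1746 with Dox. With the Nanog guide it fell, from 1781 to 901 (difference of log2 fold changes 1.97, adjusted p = 0.00914). Psmb8, an immunoproteasome subunit, had 154, 151, 173 and 161 without Dox and 485, 302, 261 and 207 with Dox. Its rise with both guides had an adjusted p of 0.0262, up to 0.101 without any library but +Dox C2ON3-1 and +Dox C2ON3-2. It went from 63.7 to 13.5 with the Nanog guide (difference of log2 fold changes 3.16, adjusted p = 0.0113). Zfp36l3 and Kcnj12 averaged 88.6 and 31.99 without and 58.6 and 45.3 with Dox under both guides, and 11.04 and 5.98 with Dox under the Nanog guide, from 117 and 27.3. Libraries of the Nanog guide are numbered here as in the table columns, since their titles give both +Dox libraries of C1 the same number and the C2 one another. The calls depended on single libraries of the Nanog guide, since 0 remained without its +Dox C1-1 library and 3 each without −Dox C1-1 or +Dox C2-1. Kcnj12 lost its call in 9 of 14 omissions (adjusted p up to 0.133).

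With the block 10 genes differed, the 5 among them together with Parp10, Tap2, Tnfrsf1b, Plcg2 and Phf6, the last of which was relatively lower with both guides. DESeq2 called 41 genes, 36 relatively higher with both guides and 5 lower. Psmb8 and Tap2 are genes of antigen processing. Of the formative and primed list, Sox3, Pou3f1 and Fgf5 fell by 2.58, 1.61 and 2.03 on the log2 scale with the Nanog guide and had −1.34, −0.91 and −0.75 with both guides in the same fit. The differences, 1.24 (standard error 0.35), 0.70 (0.35) and 1.28 (0.48), did not pass (adjusted p = 0.484, 0.873 and 0.731).

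**Figure D5:**
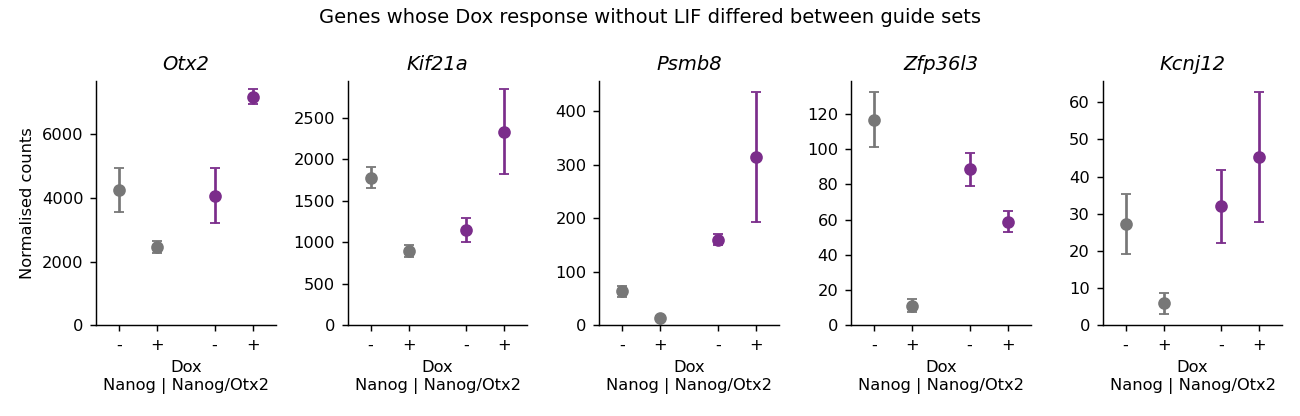
Mean ± SD of normalised counts (linear axes from 0) without LIF, without (−) and with (+) Dox, in Nanog SunTag cells (grey, n = 3 each) and Nanog/Otx2 SunTag cells (purple, n = 4 each) for the 5 genes whose response differed. All 5 genes fall with the Nanog guide, whereas Otx2, Kif21a and Psmb8 (not called in 6 of 8 omissions of 1 library) rise with both guides and Zfp36l3 and Kcnj12 were not called there.

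The same induction with LIF, where 22.9% of genes were called (12.9% higher and 10% lower), gave another pattern. The Dox response of 1514 genes (9.7%) differed between cells without and with LIF, 804 relatively higher without LIF (5.15%) and 710 lower (4.55%), and 3407 did with the block. The main fit had no clone term, and the uninduced libraries with LIF were 2 of C1ON3 and 1 of C2ON3. With the clone alone as a block 2887 genes were called, the 1514 among them. The 5 smallest p-values among the first were those of Esrrb, Zfp57, Zfp42, Prdm14 and Rbpj. On the log2 scale Esrrb rose by 3.03 without LIF and had −0.16 with it (difference 3.19, adjusted p = 3.5e-09). Zfp57, a zinc-finger protein that guards imprinted methylation, had 1230.4, 1136, 1153 and 1556 without Dox and 4775, 7009, 6758 and 6527 with Dox, with log2 fold changes of 2.34 without and −0.17 with LIF. Rbpj, the DNA-binding partner of Notch, had 5721, 5644, 5291 and 6035 without Dox and 17352, 18914, 16264 and 15427 with Dox, with log2 fold changes of 1.62 and 0.15. Without LIF the induced and uninduced libraries of these genes did not overlap, and with LIF Esrrb, Zfp57 and Rbpj were not called, Zfp42 fell with −0.59 and Prdm14 rose with 0.41 on the log2 scale. The 5 of smallest p-value in the other direction were Zyx, Nkd2, Epha8, Abcc8 and Slc9a3r1, which Dox raised with LIF, with log2 fold changes between 0.59 and 4.03. Zyx (zyxin), of focal adhesions, fell without LIF with a log2 fold change of −0.67 (adjusted p = 0.00161) and rose with LIF by 1.35 (difference −2.03, adjusted p = 2.96e-05). Otx2 had log2 fold changes of 0.85 without LIF and 1.88 with LIF, where it started lower. Sema6a, Sox3 and Fgf5 had log2 fold changes of −0.42, −0.11 and 0.14 with LIF, none of them called.

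LIF withdrawal itself, uninduced cells without LIF against uninduced cells with LIF, changed 7768 genes (49.8%), with 24.6% higher and 25.2% lower, and is set beside the Dox response without a test because both use the 4 uninduced libraries without LIF. Clone shares also differed here, since the uninduced libraries with LIF were 2 of C1ON3 and 1 of C2ON3. All 18 naive genes fell on withdrawal, with a median log2 fold change of −4.01 against 1.81 with Dox. Of 19 entries for formative and primed genes, 15 rose and 2 fell (median 1.99 against −0.32), and of 13 genes of the LIF and STAT3 list 10 fell (median −2.16 against 0.27). Among single genes, the log2 fold changes on withdrawal and with Dox were −4.89 and 3.03 for Esrrb, −3.83 and 2.42 for Tet2, 5.28 and −2.03 for Sema6a, and 2.54 and −2.09 for Fst. Withdrawal did not call Col14a1 (0.63 on the log2 scale, adjusted p = 0.434), which Dox raised by 3.85.

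Genes that lie near the guide sites were listed to show how far the changes reached there. Within 200 kb of the Nanog site 10 tested genes had their start, of which Nanog and Necap1 were called. Necap1, 167 kb away, had a log2 fold change of 0.47 (adjusted p = 0.00376), and the pluripotency genes Dppa3 and Gdf3, 80.9 and 97.2 kb away, had log2 fold changes of 0.16 and −0.01 and were not called. Otx2 was the only tested gene with a start within 200 kb of its guide site.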

How the data were processed

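RNA-seq was analysed from 26 SunTag libraries, 8 of them without LIF with both guides. Per the labels and the study's methods, the authors sequenced stranded poly(A) libraries as 65-base single-end reads, demultiplexed them with CASAVA 1.8, aligned them to mm9 with STAR and summarised genes with RSEM, and they deposited the estimated counts per gene. They also deposited normalised signal values, which are these counts divided by a DESeq2 size factor per library and are printed here as normalised counts (37620 genes). Versions of STAR, RSEM and DESeq2 were not given in the sources used here.

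Estimated counts were rounded and tested with edgeR 4.0.16 (quasi-likelihood test, TMM, R 4.3.3), on genes that reached 10 normalised counts in all libraries of some condition, with p-values adjusted by Benjamini-Hochberg over all genes tested. An adjusted p under 0.05 is a call. The Dox response was fitted over the 15 Nanog/Otx2 libraries with a group per condition, clone responses with a group per condition and clone, and the guide difference over the 26 libraries. DESeq2 1.42.0, other filters and scalings, blocks and the omission of each library were alternatives. The code was tested on simulated data. Deviations from the condition means correlated at 0.318 to 0.57 between libraries of the same clone and number in the labels, in all 4 pairs, and at 0.17 to 0.322 between libraries of the same clone with other numbers, so part of this is common to the clone. Every matched pair passed 0.1, the level set for using the block, but so did every pair of the same clone with other numbers. This level therefore cannot show that the numbers pair the libraries. Libraries of the same clone and condition differed by more than sampling noise (chi-square per gene 11.3 to 17.8).

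The genes named were the targets, the study's genes, the 10 largest changes in each direction, up to 4 members per list and the 5 of smallest p-value for each difference, and other list members were named after their values were seen. Members and lists were chosen with earlier results of these data known. Guide sequences came from the study's oligo sheet and were placed on mm9 by exact match. A motif count over promoters was void, since the RefSeq promoter table matched 65.9% of the genes tested. Some items are not reported here.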

Additional observations from a re-analysis of the deposited data

Results flagged for a closer look

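Single libraries stood apart in 4 of 66 groups of 4 examined over 33 genes, where chance alone flags about 1 in 20 groups. Klf5 was lowest in +Dox C1ON3-1 with 1409.6 normalised counts, against 2040.0 to 2156 in the other induced libraries. Cxcl12 was highest in +Dox C2ON3-2 with 704, against 481 to 512. Ptgs1 was lowest in −Dox C2ON3-2 with 5.56, against 15.8 to 17.2. The less abundant identifier of Pou3f1 was highest in −Dox C2ON3-2 with 74.6, against 38.1 to 43.6.

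A different Dox response between guide sets, tested as an interaction, was called for 5 genes. The differences in log2 fold change, both guides minus the Nanog guide, were 1.57 for Otx2, 1.97 for Kif21a, 3.16 for Psmb8, 2.78 for Zfp36l3 and 2.58 for Kcnj12. Each of the 5 lost its call in at least 1 omission of a library.

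A different Dox response without and with LIF, tested in the same way, was called for 1514 genes. The differences, without LIF minus with LIF, were 3.19 for Esrrb, 3.33 for Zfp42, 2.63 for Prdm14, 2.51 for Zfp57 and 1.47 for Rbpj, and −2.03 for Zyx, −1.78 for Nkd2, −2.41 for Epha8, −3.95 for Abcc8 and −0.86 for Slc9a3r1. Leaving out 1 library without LIF gave 1107 to 1581 such genes.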

How the results depend on the processing

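The replicate block, by which the labels' clone and number pair the libraries, raised every count of calls: 5215 genes for the Dox response, 4826 in C1ON3, 4389 in C2ON3, 3407 for the LIF difference, 10 for the guide difference and 4 for the clone difference. Numbers taken from the table columns, an alternative chosen after seeing the data, gave 5398, 4826, 4389, 3331, 10 and 4. The clone alone as a block gave 4690 for the Dox response and 2887 for the LIF difference, the latter also added after seeing the data. DESeq2 called 15 genes for the clone difference and 41 for the guide difference, and without a filter on low counts the clone difference had 295. Why these counts moved was not tested. Leaving out 1 library gave 1756 to 2625 genes for the Dox response, 1676 to 3012 in C1ON3, 1015 to 2746 in C2ON3, 1107 to 1581 for the LIF difference, 0 to 5 for the clone difference and 0 to 7 for the guide difference, 7 without the Nanog-guide −Dox C1-2 library. Of 129 genes examined for the Dox response, 35 lost and 3 gained a call in at least 1 omission. The uncalled Zfp352 was the only one to change sign, at 0.12 on the log2 scale without −Dox C1ON3-1, its lowest value being −0.49 without +Dox C2ON3-2. The replicate block ended the call of none of the genes examined. With 2 libraries per clone and condition, responses that differ modestly between clones could have been missed, and genes under 10 normalised counts were not tested.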
